A study of Homo sapiens with 2 samples.

Results

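Antisense genes are noncoding genes transcribed from the opposite strand to a named neighbour, and their symbols end in -AS, alone or with a number. The genes described here are the antisense genes of D407, a line of human retinal pigment epithelium (RPE) cells, averaging 0.5 RPKM or more over the 2 libraries of the series. RPKM is the number of reads scaled by transcript length and by library total. The deposited table listed 452 such symbols among 37364 genes. Of these, 279 were above 0 and 174 reached the level, so the levels of these 174 were what chose them and are given as a description. The 2 members just above the limit were SNAI3-AS1 (0.480 RPKM with clusterin and 0.537 RPKM in the control) and C1QTNF9B-AS1 (0.599 RPKM with clusterin and 0.405 RPKM in the control). The 2 just below it were FUT8-AS1 (0.491 RPKM with clusterin and 0.504 RPKM in the control) and KTN1-AS1 (0.439 RPKM with clusterin and 0.553 RPKM in the control).

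The series compared 1 library of D407 cells given clusterin (a chaperone found outside cells) with 1 library of control D407 cells. The labels gave no genotype change for either group, and the dose and duration of the clusterin treatment are not given in the sources used here. Both were made from RNA enriched on oligo(dT) beads, so RNAs without a poly(A) tail would be poorly represented. The totals by which the authors scaled the levels were 33177088 reads for clusterin and 38236990 reads for the control. With 1 library in each group there was no replicate check and no test between the groups. RPKM ratios are given, for the genes described most fully, with a 95% counting interval (exact Clopper-Pearson, from recovered read numbers), which covers counting error only.

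Antisense genes are often transcribed away from the start of a coding gene through a shared promoter, lie inside it, or run into it from the other end. Some act on the neighbouring gene in cis by recruiting or excluding chromatin regulators, some pair with the sense mRNA, and many have no known function. CDKN2B-AS1, known as ANRIL, binds Polycomb proteins at the CDKN2B locus. BACE1-AS was described as stabilising the mRNA of the beta-secretase BACE1, and BDNF-AS as repressing the neurotrophin gene BDNF. Most antisense RNAs are scarce and are removed by the nuclear exosome and other decay enzymes.

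The setting by which strand entered the authors' counting is not given in the sources used here. Where an antisense gene and its partner overlap, reads of one and of the other cannot be told apart in these values if strand was not used. In bulk RNA, fewer cells of a type and less RNA per cell cannot be told apart either.

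Promoter windows were matched by symbol for 136 of the 174 members in RefSeq sequences of build GRCh38.p14. Each window covers 250 bases before to 50 bases after the annotated start. The 4 windows below were chosen for what the levels show: TMPO-AS1 was among the most abundant members and overlaps the start of its partner, TPT1-AS1 was the scarcest relative to its partner, THAP9-AS1 far exceeded its partner, and BDNF-AS was lower with clusterin. The bases run 5′ to 3′ on the strand of the antisense gene. Capitals mark the GC box letters GGGCGG, the CCAAT box letters CCAAT, and also CGCG, each on either strand, with overlapping or touching matches run together.
TMPO-AS1, chr12:98516177-98516476, minus strand: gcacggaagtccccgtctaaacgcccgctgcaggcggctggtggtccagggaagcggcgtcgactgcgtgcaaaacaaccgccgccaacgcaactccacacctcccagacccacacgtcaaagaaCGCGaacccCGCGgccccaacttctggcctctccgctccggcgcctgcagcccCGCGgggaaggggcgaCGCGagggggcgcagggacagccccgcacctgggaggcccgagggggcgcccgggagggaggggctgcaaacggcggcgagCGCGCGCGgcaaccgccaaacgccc
TPT1-AS1, chr13:45341095-45341394, plus strand: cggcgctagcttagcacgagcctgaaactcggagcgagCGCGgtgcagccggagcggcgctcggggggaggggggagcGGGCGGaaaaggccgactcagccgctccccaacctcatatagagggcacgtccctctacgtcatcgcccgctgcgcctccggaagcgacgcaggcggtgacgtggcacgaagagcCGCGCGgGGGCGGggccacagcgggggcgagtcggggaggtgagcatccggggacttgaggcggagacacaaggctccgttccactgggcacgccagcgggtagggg
THAP9-AS1, chr4:82900867-82901166, minus strand: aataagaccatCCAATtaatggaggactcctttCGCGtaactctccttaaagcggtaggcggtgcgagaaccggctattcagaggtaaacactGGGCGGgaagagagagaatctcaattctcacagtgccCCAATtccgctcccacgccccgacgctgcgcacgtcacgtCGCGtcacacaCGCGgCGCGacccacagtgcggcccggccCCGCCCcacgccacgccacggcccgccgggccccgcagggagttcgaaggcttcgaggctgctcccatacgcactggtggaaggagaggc
BDNF-AS, chr11:27506602-27506901, plus strand: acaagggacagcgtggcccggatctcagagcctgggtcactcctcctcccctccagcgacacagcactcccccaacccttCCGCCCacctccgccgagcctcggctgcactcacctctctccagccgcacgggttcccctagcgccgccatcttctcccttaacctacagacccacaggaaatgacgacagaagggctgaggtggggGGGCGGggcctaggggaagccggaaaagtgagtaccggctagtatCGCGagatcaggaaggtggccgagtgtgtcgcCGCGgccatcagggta
None of these 4 windows held TATAAA on either strand. The annotated start of TPT1 itself lies inside the TPT1-AS1 window, at position 89 counted from its first base, on the other strand. The windows of TMPO-AS1 and TPT1-AS1 had GC contents of 73.3% and 71.7%, and those of THAP9-AS1 and BDNF-AS had 63.3% and 65%. Over the 136 matched members the median GC content was 62.7%, against 58.3% over all 27305 promoter windows. CGCG was held by 84 of the 136 members (61.8%) and by 49.6% of all windows. GGGCGG was held by 63 members (46.3%) and by 44.6% of all windows. CCAAT was held by 40 members (29.4%) and by 35.7% of all windows, and TATAAA by 13 members (9.56%) and by 11.95% of all windows. These matches describe the letters in the windows and were not tested.

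Most members were scarce. Their levels ran between 0.374 and 254 RPKM with clusterin (median 1.63 RPKM) and between 0.405 and 258 RPKM in the control (median 1.83 RPKM). A mean of at least 1 RPKM was reached by 125 members, at least 5 RPKM by 36, at least 10 RPKM by 17 and at least 100 RPKM by 2. The median of the means was 1.69 RPKM, against 4.58 RPKM over the 15241 genes of the table that averaged 0.5 RPKM or more. Here and below, all genes means all such rows, including those listed by Ensembl identifier, so a gene listed both ways can count more than once. The antisense genes themselves are among them. The annotated transcripts, as recovered from the values, were 350 to 6794 bases long (median 1716 bases). The members had 20 to 20152 reads over both libraries (median 210), against a median of 919 reads over all genes at this level, and 45 members had fewer than 100 reads.

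The highest level belonged to PCNA-AS1, which had 254 RPKM with clusterin and 258 RPKM in the control. It is a transcript of 384 bases that lies inside PCNA, the gene of the DNA replication clamp, which itself had 140 RPKM with clusterin and 147 RPKM in the control. All 384 bases overlap the span of PCNA, and the RPKM ratio of PCNA-AS1 was 0.984 (interval 0.939 to 1.03).
C17orf76-AS1 came next, with 106 RPKM with clusterin and 118 RPKM in the control. RefSeq now names it SNHG29, a host gene of small nucleolar RNAs. Its partner, listed under the later symbol FAM211A, had 3.02 RPKM with clusterin and 4.397 RPKM in the control.
The levels of the next members were far lower and close to one another. SLC25A5-AS1, beside the gene of a mitochondrial ADP/ATP carrier, had 24.6 RPKM with clusterin and 25.2 RPKM in the control. FBXO22-AS1 had 22.3 RPKM with clusterin and 22.1 RPKM in the control. TMPO-AS1, which starts within the gene of a lamina-associated protein, had 22.2 RPKM with clusterin and 21.1 RPKM in the control. These 3 members stood at nearly one level in both libraries. HIF1A-AS2, at the end of the hypoxia factor gene HIF1A, had 21.7 RPKM with clusterin and 20.7 RPKM in the control. In OIP5-AS1, the human counterpart of the zebrafish RNA cyrano, the values were 18.7 RPKM with clusterin and 19.8 RPKM in the control.
FGD5-AS1 (18.8 RPKM with clusterin and 19.4 RPKM in the control), SPAG5-AS1 (17.6 RPKM with clusterin and 18.9 RPKM in the control) and RUSC1-AS1 (17.2 RPKM with clusterin and 18.5 RPKM in the control) completed the 10 most abundant. Of these 10, FBXO22-AS1, TMPO-AS1 and HIF1A-AS2 were higher with clusterin and the other 7 were higher in the control, of which PCNA-AS1, SLC25A5-AS1 and FGD5-AS1 were higher with clusterin once the control was rescaled to an all-gene median of 0. The 2 values of a gene lay close together in each of the 10 by these rows, but were further apart in a second row of OIP5-AS1, given further on.

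**Figure D1:**
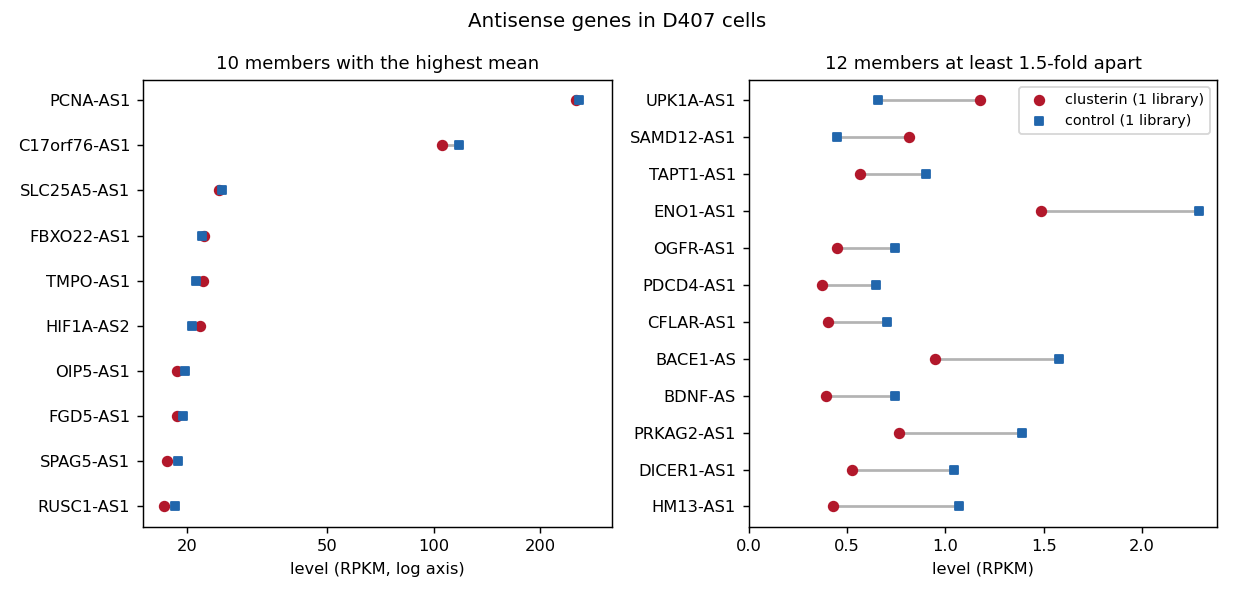
RPKM of the 10 members with the highest mean (left, log axis) and of the 12 members at least 1.5-fold apart between the libraries (right, linear axis), with 1 point for the clusterin library and 1 square for the control library. On the left the points nearly coincide, whereas on the right they stand apart but at levels of 0.374 to 2.29 RPKM.

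As a group the antisense genes differed little between the libraries. The difference was taken as log2((clusterin + 0.1)/(control + 0.1)), which understates the change of the lowest genes. The members ran between -1.14 and 0.75 with a median of -0.08, against a median of -0.07 over all genes. Of the 174 members, 112 were below 0 (64.4%), against 69.4% of all genes, and 92 were below the all-gene median (52.9%). The spread of the members was wider, with a robust SD of 0.226 against 0.144 over all genes, and the members also had fewer reads.

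At least 1.5-fold higher with clusterin were 2 members (1.15%), against 1.25% of all genes. At least 1.5-fold lower were 10 members (5.75%), against 2.72% of all genes. The 12 members past this fold had 27 to 136 reads (median 56), whereas the other 162 had 20 to 20152 reads (median 270.5). For 8 of the 12, the counting interval held the RPKM ratio of the median gene, 0.951. The share past the fold moved with the number of reads, and the part of read number in it was not tested.

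**Figure D2:**
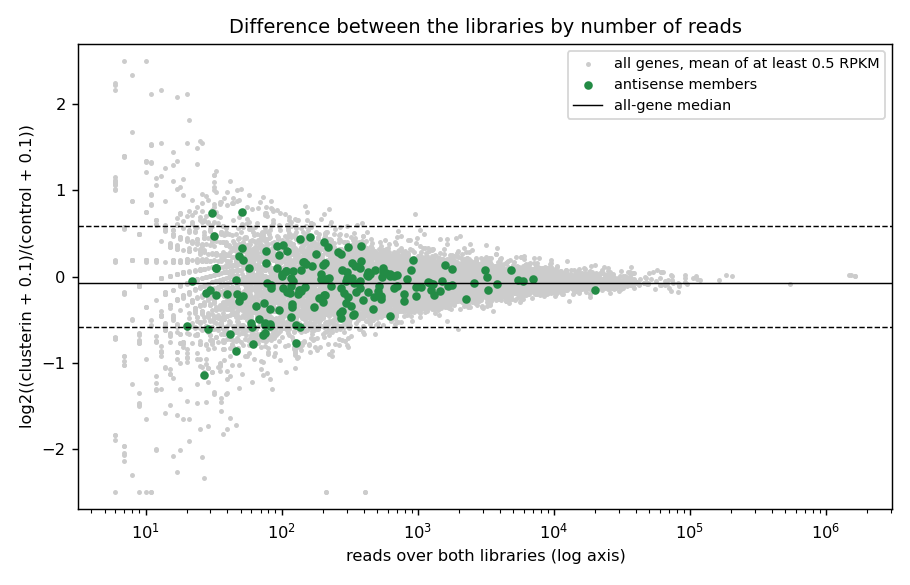
Difference between the libraries, log2((clusterin + 0.1)/(control + 0.1)), against the reads of a gene over both libraries (log axis), for the 174 antisense members (green) and for all genes averaging 0.5 RPKM or more with recovered reads (grey, those beyond 2.5 drawn at 2.5). Dashed lines mark 1.5-fold and the solid line the all-gene median of -0.07. The members past the dashed lines have 27 to 136 reads, and those with many reads lie near the solid line.

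HM13-AS1 was the farthest apart and the only member past 2-fold. It had 0.431 RPKM with clusterin and 1.07 RPKM in the control, from 7 clusterin and 20 control reads, a ratio of 0.403 (interval 0.144 to 0.993). Its partner HM13, the signal peptide peptidase, had 12.3 RPKM with clusterin and 11.2 RPKM in the control, so the 2 genes of this pair leaned opposite ways.
BDNF-AS had 0.395 RPKM with clusterin and 0.746 RPKM in the control, from 40 clusterin and 87 control reads. Its ratio was 0.530 (interval 0.355 to 0.779), which lies below the ratio of the median gene. BDNF had 1.03 RPKM with clusterin and 1.23 RPKM in the control, a ratio of 0.841 (interval 0.715 to 0.988), which does not stand clear of the median gene. BDNF-AS runs into BDNF from its far end and overlaps 43279 bases of it.
TAPT1-AS1 had 0.568 RPKM with clusterin and 0.904 RPKM in the control, from 48 clusterin and 88 control reads, a ratio of 0.629 (interval 0.433 to 0.904). TAPT1 had 1.91 RPKM in both libraries. BDNF-AS and TAPT1-AS1 were the only members past 1.5-fold with at least 100 reads.
BACE1-AS lies inside BACE1 and had 0.947 RPKM with clusterin and 1.58 RPKM in the control, from 25 clusterin and 48 control reads. Its ratio of 0.600 had an interval of 0.355 to 0.993, which holds that of the median gene. BACE1 had 2.73 RPKM with clusterin and 3.31 RPKM in the control, a ratio of 0.827 (interval 0.739 to 0.924), so both genes of this pair were lower with clusterin and only that of BACE1 was clear of the median gene.
DICER1-AS1 had 0.526 RPKM with clusterin and 1.04 RPKM in the control, from 14 clusterin and 32 control reads. DICER1, the ribonuclease that cuts microRNA precursors, had 3.34 RPKM with clusterin and 3.89 RPKM in the control.
PDCD4-AS1 had 0.374 RPKM with clusterin and 0.649 RPKM in the control, from 25 clusterin and 50 control reads, a ratio of 0.576 (interval 0.342 to 0.949). PDCD4, an inhibitor of translation initiation, had 19.98 RPKM with clusterin and 23.4 RPKM in the control, a ratio of 0.853 (interval 0.810 to 0.899). Both genes of this pair lay below the ratio of the median gene by these rows, but a second row of PDCD4-AS1, given further on, held it.
The other 4 lower members rested on few reads. PRKAG2-AS1, beside the gene of an AMP-activated kinase subunit, had 0.762 RPKM with clusterin and 1.39 RPKM in the control. CFLAR-AS1, inside the gene of the apoptosis inhibitor c-FLIP, had 0.405 RPKM with clusterin and 0.703 RPKM in the control. Both were lower with clusterin, as were the next pair of members. OGFR-AS1, beside the opioid growth factor receptor gene, had 0.451 RPKM with clusterin and 0.744 RPKM in the control. ENO1-AS1, beside the enolase gene, had 1.49 RPKM with clusterin and 2.29 RPKM in the control. The intervals of all 4 held the ratio of the median gene. Second rows of PRKAG2-AS1 and DICER1-AS1, given further on, were not past 1.5-fold.
Of the 2 members past 1.5-fold in the other direction, UPK1A-AS1 had 1.18 RPKM with clusterin and 0.658 RPKM in the control, from 31 clusterin and 20 control reads, a ratio of 1.79 (interval 0.986 to 3.31). The uroplakin gene UPK1A, inside which it lies, had 0.468 RPKM with clusterin and 0.235 RPKM in the control. SAMD12-AS1 had 0.817 RPKM with clusterin and 0.448 RPKM in the control, from 19 clusterin and 12 control reads, a ratio of 1.82 (interval 0.841 to 4.12), while SAMD12 had 1.25 RPKM with clusterin and 1.39 RPKM in the control.

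Intervals clear of the median gene gave another view, which favours genes with more reads. The interval lay above the ratio of the median gene for 13 members (7.47%), against 11.2% of all genes with recovered reads. It lay below for 12 members (6.90%), against 9.5% of all genes. For the other 149 members the interval held that ratio.
The member with the most reads, C17orf76-AS1, had 8812 reads with clusterin and 11340 in the control, a ratio of 0.896 (interval 0.871 to 0.921). SH3BP5-AS1, which runs through SH3BP5 from its end, had 954 reads with clusterin and 1320 in the control, a ratio of 0.833 (interval 0.766 to 0.906). C1RL-AS1, which starts within the complement C1r-like gene, had 241 reads with clusterin and 388 in the control, a ratio of 0.716 (interval 0.607 to 0.843), while C1RL had a ratio of 0.981 (interval 0.867 to 1.11).
In these 3 the difference was modest in size but rested on 629 reads or more. CDKN2B-AS1 had 0.945 RPKM with clusterin and 1.31 RPKM in the control, from 132 clusterin and 211 control reads, a ratio of 0.721 (interval 0.576 to 0.900). CDKN2B, which encodes the cyclin-dependent kinase inhibitor p15, lies wholly within its span and had 13.3 RPKM with clusterin and 13.1 RPKM in the control. MCM3AP-AS1 had 2.42 RPKM with clusterin and 3.19 RPKM in the control, a ratio of 0.760 (interval 0.628 to 0.918), but a second row of this gene, with 727 clusterin and 940 control reads, had a ratio of 0.891 (interval 0.808 to 0.983), which holds that of the median gene.
ASB16-AS1 (ratio 0.701, interval 0.544 to 0.8996), PAN3-AS1 (ratio 0.725, interval 0.577 to 0.908), NUTM2A-AS1 (ratio 0.738, interval 0.572 to 0.948) and EGFR-AS1 (ratio 0.818, interval 0.708 to 0.945) lay below the median gene as well, and with BDNF-AS, TAPT1-AS1 and PDCD4-AS1 they make up the 12. EGFR-AS1 lies inside the growth factor receptor gene EGFR, which had a ratio of 0.953 (interval 0.915 to 0.993).
Above the median gene lay UPK1A-AS1, SERTAD4-AS1 (3.32 RPKM with clusterin and 2.39 RPKM in the control), MAFG-AS1 (1.19 RPKM with clusterin and 0.856 RPKM in the control), SDCBP2-AS1 (1.24 RPKM with clusterin and 0.913 RPKM in the control) and ADPGK-AS1 (2.24 RPKM with clusterin and 1.72 RPKM in the control). The others above it were TOPORS-AS1, SBF2-AS1, PRR7-AS1, CACTIN-AS1, NDUFB2-AS1, MAPKAPK5-AS1, TMPO-AS1 and HIF1A-AS2, with ratios of 1.05 to 1.29 whose lower bounds were 0.954 to 1.02. C1QTNF9B-AS1 and LBX2-AS1 were also among the 8 highest differences, at 0.47 and 0.37 on the log2 scale, but their intervals held the median gene. A second row of LBX2-AS1, given further on, did not.
In the authors' deposited table, 10 members had a q-value under 0.05, all of them lower with clusterin (5.75%), against 13.2% of all genes averaging 0.5 RPKM or more and 10.4% of all genes above 0. The count of members higher with clusterin was 0, against 1.85% and 1.63%. The smallest such q-values in the authors' deposited table were 1.77e-12 for C17orf76-AS1, 0.000557 for SH3BP5-AS1 and 0.00116 for C1RL-AS1, and BDNF-AS had 0.0101. The count of 10 and this order are those of the rows listed by symbol. Among rows listed by Ensembl identifier, OIP5-AS1 and TAPT1-AS1, both lower with clusterin, had smaller deposited q-values than SH3BP5-AS1. That of MCM3AP-AS1 was above 0.05 there. These q-values compare 2 libraries by read sampling error alone, and they set a ratio against 1, not against the median gene.

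Of the 174 members, 170 had a row for the gene named before -AS, in 168 different genes, 2 of them found through a later symbol. The other 4 (HOXA-AS4, HOXB-AS1, HOXB-AS3 and HOXC-AS5) are named for a gene cluster. The partners DLGAP1 and FGD5 were listed at 0 in both libraries, although DLGAP1-AS1 and FGD5-AS1 were members. Another 11 pairs had a partner above 0 with a mean below 0.5 RPKM. The remaining 155 partners, in 157 pairs, had means of 0.503 to 519 RPKM (median 6.13 RPKM) and a median of 1995 reads.
The antisense gene was mostly the scarcer of the pair. Over the 168 pairs with a partner above 0, the median level of the antisense gene relative to its partner was 39.0% with clusterin and 39.3% in the control. The lower and upper quartiles were 15.9% and 83.8% with clusterin, and 16.8% and 86.7% in the control. The level limit was set on the antisense gene only, so pairs with a scarcer antisense gene are left out of these relative levels. In 31 pairs the antisense gene was above its partner in both libraries, and in 6 pairs in 1 library. In 24 pairs it was below 0.1 of its partner in both libraries. Across the 168 pairs the levels of the 2 genes were loosely related (Pearson r 0.34 on log2 means, Spearman rho 0.32), over pairs that share libraries and partly share sequence.
The pairs led by the antisense gene were led by C17orf76-AS1, at 35.1 times the level of FAM211A with clusterin and 26.9 times in the control. TP73-AS1 had 2.50 RPKM with clusterin and 2.61 RPKM in the control, while TP73, a relative of the tumour suppressor p53, had 0.136 RPKM with clusterin and 0.0995 RPKM in the control. THAP9-AS1 had 7.18 RPKM with clusterin and 8.05 RPKM in the control, while THAP9, a gene descended from a DNA transposase, had 0.567 RPKM with clusterin and 0.544 RPKM in the control.
The annotated starts of THAP9-AS1 and THAP9 are 181 bases apart, while the levels of the 2 genes differed more than 12-fold by these rows. A second row of THAP9-AS1 was lower, with 4.74 RPKM with clusterin and 5.28 RPKM in the control, so its fold over THAP9 was smaller. BZRAP1-AS1 was at 12.4 times its partner with clusterin and 10.5 times in the control. NUTM2A-AS1 was at 13.5 times its partner with clusterin and 9.94 times in the control, from 3.85 RPKM and 5.22 RPKM. A second row of NUTM2A-AS1 was far lower, with 1.22 RPKM with clusterin and 1.43 RPKM in the control, so this relative level depends on the row.
At the other end stood TPT1-AS1, with 0.494 RPKM with clusterin and 0.737 RPKM in the control. TPT1, which encodes the translationally controlled tumour protein, had 511 RPKM with clusterin and 527 RPKM in the control, so TPT1-AS1 was at 0.0967% of it with clusterin and at 0.140% in the control. Its window printed above holds both starts, which are 162 bases apart.
ENO1-AS1 was at 0.0031 of the level of ENO1 with clusterin and at 0.00467 in the control, where ENO1 had 479 RPKM with clusterin and 490 RPKM in the control. OGFR-AS1 was at 0.0129 of OGFR with clusterin and 0.0219 in the control, GNAS-AS1 at 0.0163 of the G protein gene GNAS with clusterin and 0.0238 in the control, and PCBP1-AS1 at 0.0211 of PCBP1 with clusterin and 0.0206 in the control. That PCBP1-AS1 row had 0.682 RPKM with clusterin and 0.691 RPKM in the control. Its second row was higher, with 1.62 RPKM with clusterin and 1.83 RPKM in the control.

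**Figure D3:**
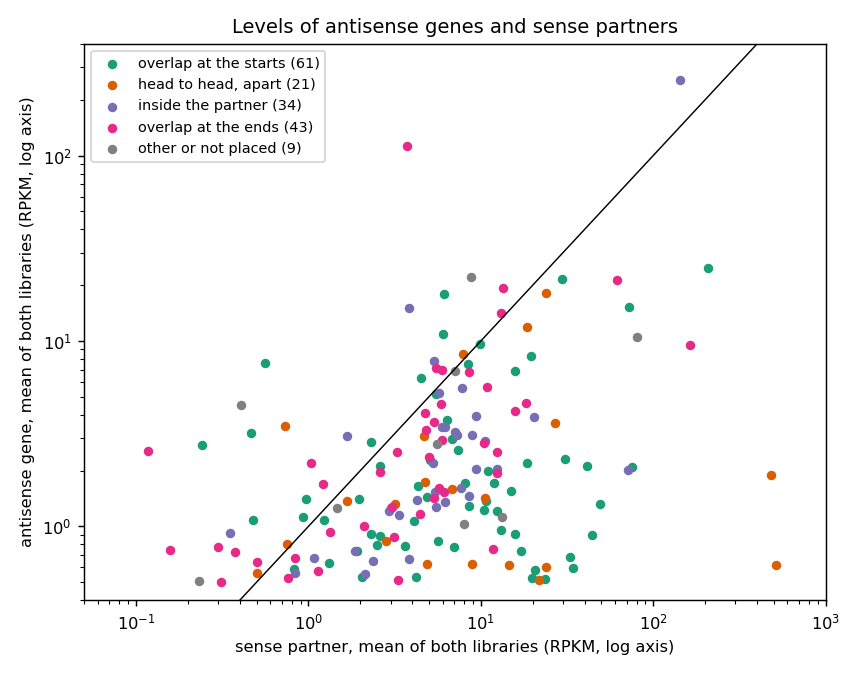
Mean level of the antisense gene against that of its sense partner (RPKM over both libraries, both axes logarithmic) for the 168 pairs with a partner above 0, coloured by arrangement in RefSeq, with the number of pairs in each. The line marks equal levels: most points lie below it, and points far above and far below it occur in several arrangements.

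The partners were less spread between the libraries than the antisense genes, and they had more reads. The 155 partners had a median of -0.08, a range of -0.53 to 0.62 and a robust SD of 0.116 on the log2 scale, with a median of 1995 reads, against a robust SD of 0.226 and a median of 210 reads for the 174 antisense genes. The part of read number in the spread was not tested. Higher by at least 1.5-fold was 1 partner, FOXD2 (0.645%, against 1.25% of all genes), and lower were 0 (against 2.72% of all genes). FOXD2 had 0.632 RPKM with clusterin and 0.375 RPKM in the control, a ratio of 1.69 (interval 1.22 to 2.34). FOXD2 encodes a forkhead transcription factor, and FOXD2-AS1 had 0.565 RPKM with clusterin and 0.553 RPKM in the control. None of the 10 lower and 2 higher antisense genes had a partner averaging 0.5 RPKM past the same fold. UPK1A, the partner of UPK1A-AS1, lies under that level and was higher with clusterin by 0.76 on the log2 scale.
In 94 of the 157 measured pairs (59.9%) the 2 genes lay on the same side of the all-gene median: both below in 54 and both above in 40. In 31 pairs the antisense gene was above and its partner below, and in 32 pairs the reverse. Across the pairs the differences had a Pearson r of 0.15 and a Spearman rho of 0.17. Among the 82 pairs whose antisense gene had at least 200 reads, r was 0.13, rho was 0.14 and 49 pairs lay on the same side. These are descriptions over pairs that share 2 libraries and, where they overlap, possibly reads.
The interval lay above the ratio of the median gene for 23 of the 155 partners (14.8%, against 11.2% of all genes) and below it for 21 (13.5%, against 9.5% of all genes). These shares favour genes with more reads, and the partners had a median of 1995 reads against 919 over all genes. In 6 pairs both genes had an interval clear of the median gene, and each of these 6 pairs lay on the same side. Below it were C17orf76-AS1 with FAM211A, PAN3-AS1 with PAN3, and PDCD4-AS1 with PDCD4, although the symbol rows of PAN3-AS1 and PDCD4-AS1 differ from second rows of these genes, given further on. Above it were HIF1A-AS2 with HIF1A, ADPGK-AS1 with ADPGK, and MAFG-AS1 with MAFG. In the other 16 measured pairs with an antisense interval clear of the median gene, the partner's interval held it.
PAN3-AS1 had 1.77 RPKM with clusterin and 2.45 RPKM in the control. PAN3, a subunit of a poly(A) deadenylase, had 2.25 RPKM with clusterin and 2.94 RPKM in the control, a ratio of 0.767 (interval 0.676 to 0.868). The genes overlap by 982 bases at their starts. FAM211A had a ratio of 0.686 (interval 0.590 to 0.796), further from 1 than that of C17orf76-AS1, and the spans of these 2 overlap by 29072 bases.

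**Figure D4:**
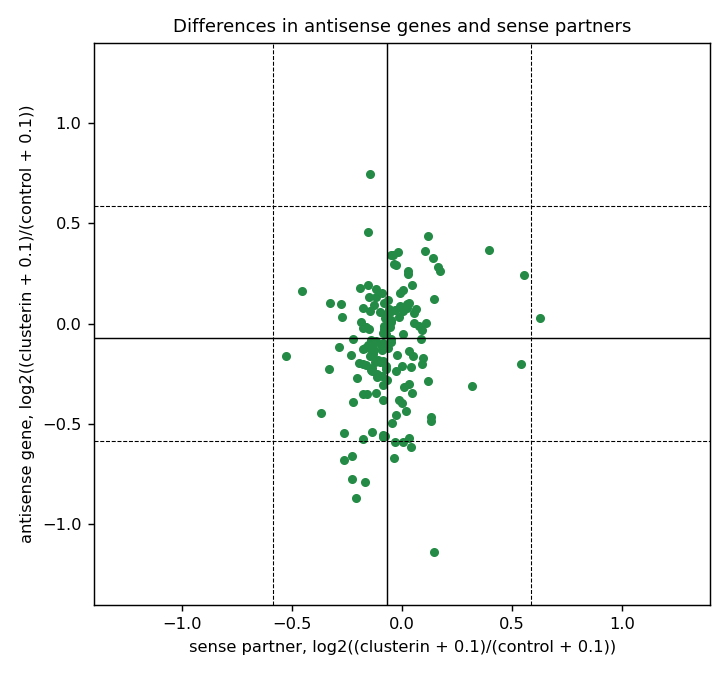
Difference between the libraries, log2((clusterin + 0.1)/(control + 0.1)), of the antisense gene against that of its sense partner in the 157 measured pairs. Solid lines mark the all-gene median and dashed lines 1.5-fold. The points spread more along the antisense axis than along the partner axis, and 94 lie to the lower left or the upper right of the crossing of the solid lines.

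The RefSeq positions of build GRCh38.p14 placed 169 members, and the strand was that of the deposited table for each of the 136 members with a RefSeq strand. In 61 pairs the antisense gene and its partner overlap at their starts, and in 21 they face away from each other without overlap, so 82 run away from the partner. In 54 of these 82 the starts lie within 1000 bases, and in 24 within 300 bases. Another 43 antisense genes overlap the end of the partner, 35 lie inside it, 3 span it and 2 lie tail to tail apart from it. FBXO22-AS1, HNRNPU-AS1, RSBN1L-AS1, SETD5-AS1 and MAFG-AS1 were not placed.
The members that overlap the end of the partner had the highest median level relative to it among the 4 larger arrangements, 63.6% with clusterin and 71.6% in the control. Members inside the partner stood at 39.0% with clusterin and 38.0% in the control. Members overlapping at the starts stood at 30.0% with clusterin and 28.6% in the control, and those head to head and apart at 26.5% with clusterin and 32.4% in the control.
The median differences were -0.02 for overlap at the starts, -0.09 inside the partner, -0.14 for overlap at the ends and -0.17 head to head and apart. Over the 174 members the median was -0.08. Whether the arrangements differ was not tested. Members past 1.5-fold were few in each arrangement. Overlapping at the starts were 1 higher and 4 lower of 61, and inside 1 higher and 2 lower of 35. At the ends 2 of 43 were lower, and head to head 2 of 21. Over all genes 1.25% were higher and 2.72% lower. These 12 members had 27 to 136 reads. Pairs on the same side of the all-gene median were 34 of 58 measured for overlap at the starts, 23 of 38 at the ends, 19 of 33 inside and 13 of 21 head to head.

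Of the 174 members, 155 were also listed by an Ensembl identifier, 22 of them with identical values and 2 with 0. In the other 131 the Ensembl row stood at 0.0609 to 14.6 times the level of the symbol row (median 0.939), and in 37 the 2 levels were over 1.5-fold apart. Their log2 differences between the libraries were apart by a median of 0.05 and by at most 0.70.
Of the 12 members past 1.5-fold, 10 were listed both ways, 3 with identical values, and 4 of the other 7 were past the fold in the same direction in the second row. The second row of BDNF-AS had 0.340 RPKM with clusterin and 0.667 RPKM in the control, and that of TAPT1-AS1 had 0.697 RPKM with clusterin and 1.30 RPKM in the control. The second row of PRKAG2-AS1 had 1.59 RPKM with clusterin and 1.70 RPKM in the control, and that of DICER1-AS1 had 0.252 RPKM with clusterin and 0.345 RPKM in the control. For PDCD4-AS1 the second row was far higher, 7.28 RPKM with clusterin and 7.63 RPKM in the control, so the difference in the symbol row was not seen there. For PAN3-AS1 the second row had 0.402 RPKM with clusterin and 0.445 RPKM in the control, a log2 difference of -0.12 against -0.44 in the symbol row, and at this level no interval was computed. Of 19 members whose interval was clear of the median gene and whose second row had other values and an interval, 15 were clear of it on the same side in the second row. The second rows of MCM3AP-AS1, NUTM2A-AS1 (ratio 0.854, interval 0.728 to 0.9998), PDCD4-AS1 and PRR7-AS1 (ratio 0.948, interval 0.757 to 1.18) held it. Going the other way, some members whose symbol row held it had a second row clear of it. That of OIP5-AS1, with 3679 clusterin and 4843 control reads, lay below it, with a ratio of 0.876 (interval 0.839 to 0.914). The second row of KDM4A-AS1 lay below it too. Those of TMEM161B-AS1 and, only just, LBX2-AS1 lay above it.

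**Figure D5:**
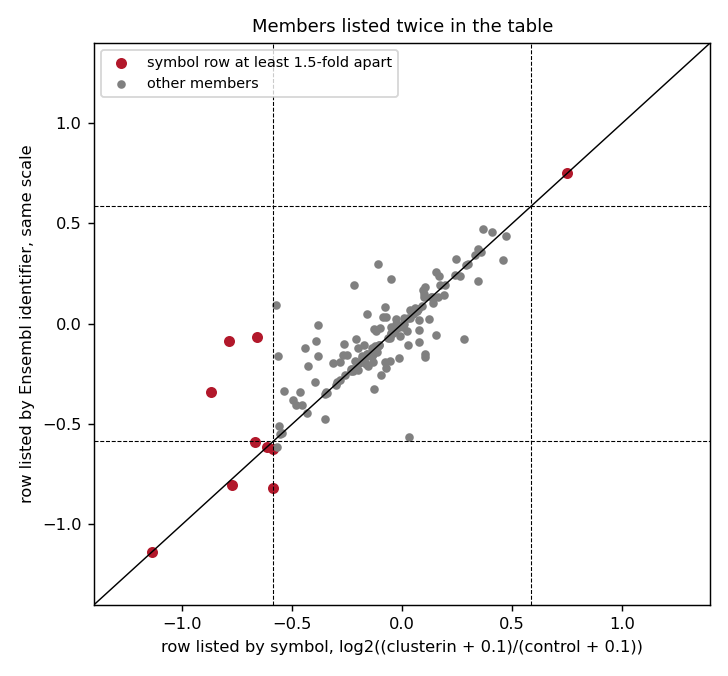
Difference between the libraries, log2((clusterin + 0.1)/(control + 0.1)), in the row listed by Ensembl identifier against the row listed by symbol, for members listed both ways and above 0. Red points are members at least 1.5-fold apart by symbol. The line marks equal values and dashed lines 1.5-fold. Most points lie near the line, and 3 of the red points lie far above it, at smaller differences by Ensembl identifier.

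Among 45 well described antisense and related RNAs, chosen by name, 34 were in the table, 20 were members and 6 were listed at 0. Besides those above, EPB41L4A-AS1, the host of a small nucleolar RNA, had 14.6 RPKM with clusterin and 15.6 RPKM in the control. MAPKAPK5-AS1 had 10.1 RPKM with clusterin and 9.22 RPKM in the control. HOXB-AS3 of the HOXB cluster had 5.90 RPKM with clusterin and 6.61 RPKM in the control, and HOXB-AS1 had 2.80 RPKM with clusterin and 2.53 RPKM in the control.
Of these 4, MAPKAPK5-AS1 had an interval above the median gene (0.994 to 1.21), and the intervals of the other 3 held it. ST7-AS1 had 4.98 RPKM with clusterin and 5.36 RPKM in the control. AFAP1-AS1, beside the gene of an actin-filament protein, had 2.45 RPKM with clusterin and 2.60 RPKM in the control. SBF2-AS1 had 1.81 RPKM with clusterin and 1.41 RPKM in the control, a ratio of 1.29 (interval 1.02 to 1.62).
DDX11-AS1 starts 13 bases from the helicase gene DDX11 and had 1.31 RPKM with clusterin and 1.53 RPKM in the control. ZEB1-AS1, which overlaps the start of the gene of the epithelial-mesenchymal transition factor ZEB1, had 0.967 RPKM with clusterin and 0.851 RPKM in the control, and ZEB1 had 2.32 RPKM in both libraries. TTN-AS1 had 0.726 RPKM with clusterin and 0.769 RPKM in the control, above the muscle titin gene TTN, at 0.155 RPKM with clusterin and 0.161 RPKM in the control.

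Among the factors that process or remove noncoding RNA, differences were small in size. All 42 genes of a list of RNA surveillance factors (exosome subunits and cofactors, decapping and nonsense-mediated decay factors, RNA editing enzymes, DICER1 and DROSHA) were measured, and 0 were past 1.5-fold. Their median difference was -0.10, against -0.07 over all genes, and 24 of 42 lay below the all-gene median. The intervals of 6 (14.3%, against 11.2% of all genes) lay above the ratio of the median gene and those of 8 (19.0%, against 9.5% of all genes) below it. Such shares favour genes with more reads, and the part of read number in them was not tested. The lowest were the decapping activator DCP1A (2.61 RPKM with clusterin and 3.21 RPKM in the control), the exosome cofactor C1D (5.26 RPKM with clusterin and 6.40 RPKM in the control) and the nonsense-mediated decay factor UPF2 (4.94 RPKM with clusterin and 5.77 RPKM in the control). The interval of C1D, 0.690 to 0.979, held the ratio of the median gene. The highest were the nuclear RNA factor NRDE2 (2.17 RPKM with clusterin and 1.83 RPKM in the control) and the exosome subunits EXOSC7 (18.5 RPKM with clusterin and 16.4 RPKM in the control) and EXOSC4 (42.6 RPKM with clusterin and 38.3 RPKM in the control).

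The labelled cell type was checked against its markers. Of 10 genes that mark retinal pigment epithelium, 6 (RPE65, RLBP1, LRAT, TTR, OTX2 and TYR) had a level of 0 in each library, and 2 reached 1 RPKM. Their summed level was 12.7 RPKM with clusterin and 13.0 RPKM in the control, most of it MITF. The summed level of 6 simple epithelium markers was 1003 RPKM with clusterin and 985 RPKM in the control and came from 4 keratins, while EPCAM was listed at 0 and CDH1 had 0.025 RPKM with clusterin and 0.0163 RPKM in the control. The summed level of 5 fibroblast markers was 71.6 RPKM with clusterin and 73.3 RPKM in the control, nearly all of it DCN and LUM, with PDGFRA listed at 0 and COL3A1 at 0.110 RPKM with clusterin and 0.0667 RPKM in the control. That of 3 leukocyte markers was 6.09 RPKM with clusterin and 6.26 RPKM in the control, nearly all of it CD68, with PTPRC listed at 0. That of 3 endothelium markers was 0.975 RPKM with clusterin and 1.01 RPKM in the control. These sums lay close together in the 2 libraries, and their part in the differences above was not tested.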

How the data were processed

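Total RNA of D407 cells was selected on oligo(dT) beads, broken into fragments and primed with random hexamers, per the labels' protocols. The submitters' processing notes name Bowtie, TopHat, Cuffdiff and build hg19, without versions; how strand was counted is not stated in them. The authors scaled reads by transcript length and library total and deposited 1 RPKM value per gene and library. The file header names no unit, and RPKM was read from the values: level times length gave whole numbers (within 0.02) in both libraries for 482 of 534 small RNA genes at 1 total per library. Whole numbers cannot tell reads from read pairs. The authors also deposited columns of log2 fold change, p-value and q-value, the last 2 set to 0 where both levels are 0, which was not taken as a call.

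Reads were recovered by finding the transcript length, up to 40000 bases, at which both levels were whole reads that gave the deposited p-value within 2%. This succeeded for 174 of 174 members (162 with 1 possible length) and for 15191 of 15241 genes averaging 0.5 RPKM or more (99.7%). On reads simulated for 2000 genes it recovered 1983, each within 5% of the true total. Second rows averaging under 0.5 RPKM were not searched. The log2 difference used a pseudocount of 0.1 RPKM. Robust SD is the scaled median absolute deviation. Positions, strands and promoter windows came from RefSeq GRCh38.p14, and no coordinates of the table are printed. Tools were Python 3.11.15, pandas 2.3.3, NumPy 2.4.6, SciPy 1.17.1 and matplotlib 3.10.9.

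The members and gene lists were chosen with earlier results of these data known. Named genes were the 10 highest members by mean, the 8 highest and 8 lowest by difference, up to 10 with an interval clear of the median gene, the 5 highest and 5 lowest pairs by relative level, the well described list, the 3 highest and 3 lowest surveillance factors, the members next to the level limit, and the partners of these. ENO1-AS1 past 1.5-fold, FOXD2, the remaining members with an interval clear of the median gene, and those with small deposited q-values were named after their values were seen.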

Additional observations from a re-analysis of the deposited data

How the results depend on the processing

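No paired analysis was possible because each group has 1 library. For the same reason no library could be left out, and variation between cultures or preparations could not be measured. Counting error also limits what can be seen, with 45 members under 100 reads. The 12 of 174 members past 1.5-fold became 0 with a pseudocount of 1 RPKM and 1 at a threshold of 2-fold. They became 3 of 125 with a minimum mean of 1 RPKM and 28 of 278 with no minimum. Among members with at least 100 reads, a setting chosen after seeing the data, they were 2 of 129. The share of all genes was not computed at these settings, so these counts have no background beside them. The 1 of 155 partners past 1.5-fold became 0 with a pseudocount of 1 RPKM or at 2-fold, and 0 of 108 with a minimum mean of 1 RPKM. It became 3 with a pseudocount of 0.01 RPKM or with the control rescaled to an all-gene median of 0, and 5 of 258 with no minimum. Rescaling the control by 0.951 moved the median differences to -0.015 for members, -0.0049 for partners and -0.024 for the surveillance factors, by the construction of that setting. The 10 members with a deposited q-value under 0.05 became 3 under 0.01. Elsewhere the cause was not tested. Other settings moved these counts by less than 1.5 times: 17 members were past 1.5-fold with a pseudocount of 0.01 RPKM, 9 with the control rescaled and 10 with the Ensembl row in place of the symbol row, which was chosen after seeing the data. The median relative level of the antisense gene, 41.6% on means of both libraries, was 36.7% with partners of at least 0.5 RPKM and 43.4% with members of at least 1 RPKM. None of these medians changed direction, but with the control rescaled the small differences of PCNA-AS1 (0.05), SLC25A5-AS1 (0.04) and FGD5-AS1 (0.02), TP73-AS1 (0.01), PCBP1-AS1 (0.05) and FUT8-AS1 (0.03) turned positive, as did those of EPB41L4A-AS1 (0.03) and TTN-AS1 (0.03) in the Ensembl row.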

Other observations

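Besides the genes listed by symbol, 427 rows averaging 0.5 RPKM or more were listed only by an Ensembl identifier that the reference table of names pairs with an antisense symbol. Their median difference was -0.10 on the log2 scale, with 10 (2.34%, against 1.25% of all genes) at least 1.5-fold higher and 30 (7.03%, against 2.72% of all genes) at least 1.5-fold lower with clusterin, and 155 of them had fewer than 100 reads. Several were listed at far higher levels than most symbols above. TUBA1B-AS1, beside an alpha-tubulin gene, had 204 RPKM with clusterin and 215 RPKM in the control. KRT7-AS, at a keratin gene, had 93.7 RPKM with clusterin and 90.1 RPKM in the control. VIM-AS1, at the vimentin gene, had 63.5 RPKM with clusterin and 60.2 RPKM in the control. How strand was counted is not given, so where such a gene overlaps its partner these levels may include reads of the partner. KRT7, one of the keratin markers above, was itself higher than KRT7-AS in both libraries. The part of partner reads in these levels was not tested. Among the 10 most abundant, CBR1-AS1 had a ratio of 1.20 (interval 1.13 to 1.28), with 44.4 RPKM with clusterin and 36.9 RPKM in the control. MALT1-AS1 had 40.3 RPKM with clusterin and 33.4 RPKM in the control, a ratio of 1.21 (interval 1.10 to 1.32). IGFL2-AS1 had 37.4 RPKM with clusterin and 45.3 RPKM in the control, a ratio of 0.825 (interval 0.780 to 0.872).

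Antisense RNAs of the HOX clusters, the gene clusters that pattern the body axis, held some of the widest gaps below the level limit or outside the symbols. HOXD-AS2 had 2 reads with clusterin and 21 in the control, or 0.0871 RPKM with clusterin and 0.794 RPKM in the control, a ratio of 0.110 (interval 0.0125 to 0.449). HOXB-AS2, listed by Ensembl identifier, had 8 reads with clusterin and 38 in the control, or 0.285 RPKM with clusterin and 1.18 RPKM in the control, a ratio of 0.243 (interval 0.0978 to 0.528). Other HOX antisense genes did not show such a gap: HOXA11-AS had 11.1 RPKM with clusterin and 12.8 RPKM in the control, HOXA-AS4 had 16.5 RPKM with clusterin and 18.5 RPKM in the control, and HOXA-AS3 had 0.333 RPKM in both. HOXD-AS2 and HOXB-AS2 were chosen after their values were seen. Wide gaps from few reads were not confined to these clusters. Among rows listed only by Ensembl identifier, RTCA-AS1 had 3 reads with clusterin and 24 in the control, and CNOT10-AS1 had 6 and 22. In the other direction, SLC12A9-AS1 had 21 reads with clusterin and 11 in the control, ITCH-AS1 had 8 and 3, and MNX1-AS2 had 10 and 3.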
